A study of Mus musculus with 6 samples.

Results

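The endothelin and angiotensin genes Edn1, Edn3, Ednra, Ednrb, Ece1, Agtr1a, Agtr2 and Ace were followed in fetal testicular interstitial cells. They were chosen by symbol, with earlier results of these data known. They are 8 of the 24413 genes listed, and all 8 have a row in the deposited table. The cells, named W-EGFP, came from FLE-EGFP mice at E16.5, a line in which EGFP is driven by a fetal Leydig cell enhancer of the Nr5a1 gene. One group was treated with SAG, a small-molecule agonist of the Hedgehog signal transducer Smoothened, at 0.5 µM for 1 hour, and the other with its vehicle DMSO. Each group had 3 libraries, each from 10000 cells. The column names of both groups carry the element siCnt, which the labels do not explain, so whether all cells also received a control siRNA is not stated. Whether the 3 replicates of a group are distinct cultures or animals is not stated, and the p-values therefore describe variation among these libraries, possibly technical in origin.

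Endothelins are short peptides cut from larger precursors. The last cut is made by a membrane protease, endothelin converting enzyme, encoded by Ece1. The peptides act on a pair of G-protein-coupled receptors, EDNRA, which prefers endothelin 1, and EDNRB, which binds all endothelins alike, and both raise intracellular calcium. In the renin-angiotensin system, renin cuts angiotensinogen to angiotensin I and angiotensin converting enzyme, encoded by Ace, trims that to angiotensin II, which acts on the receptors encoded by Agtr1a and Agtr2. Both systems are best known for vascular tone, and endothelin 3 with EDNRB for the development of neural crest cells.

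The 2 ligand genes code for related mature peptides, and the stretch that codes for them is shown because these peptides are what the receptors bind. The sequences below are the bases coding for the 21 residues of the mature peptide, in exon 2 of each gene, on build GRCm38 and on the plus strand. They lie at chr13:42303649-42303711 for Edn1 and at chr2:174761749-174761811 for Edn3. Capitals mark the bases identical in both genes.
Edn1: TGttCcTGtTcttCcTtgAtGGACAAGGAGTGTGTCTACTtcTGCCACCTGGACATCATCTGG
Edn3: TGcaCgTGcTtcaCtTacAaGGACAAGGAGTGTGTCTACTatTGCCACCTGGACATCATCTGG
Of these 63 bases 50 were identical (79.4%), and the longest identical run was 21 bases. Over their whole transcripts neither gene shared any 50-base stretch with another gene, counted as 0% of its stretches.

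The promoter stretches of the 3 members with the largest folds higher in SAG are shown because these genes moved the same way. They are RefSeq sequences on GRCm38.p6, 5′ to 3′ on the gene's own strand, limited to bases before the start and outside annotated exons: chr8:77724465-77724702 (minus strand) for Ednra, chr14:103843702-103843951 (minus strand) for Ednrb, inside the span of the GENCODE gene but in no exon, and chr11:105967698-105967944 (plus strand) for Ace. Capitals mark the match to TATAAA, read on the other strand.
Ednra: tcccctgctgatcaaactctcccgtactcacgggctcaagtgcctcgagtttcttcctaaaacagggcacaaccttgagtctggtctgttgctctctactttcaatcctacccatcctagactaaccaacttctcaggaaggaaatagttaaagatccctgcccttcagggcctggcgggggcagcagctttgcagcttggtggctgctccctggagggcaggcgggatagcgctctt
Ednrb: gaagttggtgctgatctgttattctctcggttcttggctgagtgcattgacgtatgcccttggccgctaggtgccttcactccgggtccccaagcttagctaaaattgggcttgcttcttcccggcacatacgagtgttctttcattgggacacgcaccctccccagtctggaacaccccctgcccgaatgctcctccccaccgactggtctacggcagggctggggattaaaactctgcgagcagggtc
Ace: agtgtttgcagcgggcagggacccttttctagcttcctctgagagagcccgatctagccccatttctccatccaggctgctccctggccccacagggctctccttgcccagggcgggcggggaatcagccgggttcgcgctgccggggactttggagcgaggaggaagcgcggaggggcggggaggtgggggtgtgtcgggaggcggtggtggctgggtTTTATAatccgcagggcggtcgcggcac
Motifs were searched on both strands in the 250 bases before the start, and their share is given among 32851 RefSeq promoters of that length. The motif of the Hedgehog factors GLI, GACCACCCA, was in 0.225% of them. The AP-1 motif, TGANTCA, was in 6.75%. The motif of GATA factors, spelled GATAA, was in 22.6%. The TATA box letters TATAAA were in 12.4%. The motif of the factor SF-1, spelled CAAGGTCA, was in 1.33%. The Ace match, from -31 to -26 relative to the RefSeq start, was the only match in the 11 windows of the 7 members with an entry. Ace also has a RefSeq start inside the gene, and the deposited counts do not separate the 2 starts.

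The libraries held 8518849, 8804335 and 7694479 reads in SAG and 25491259, 22789079 and 18486396 reads in DMSO. The deposited values are CPM with scaling factors inside, called signal here, and 1 read equals a signal of 0.106 to 0.128 in SAG and 0.0414 to 0.0564 in DMSO. SAG and DMSO libraries parted on principal component 1 (66.4% of variance), and SAG replicate 3 lay away from the other SAG libraries on component 2 (20.8%). Reads of the ribosomal RNA Rn45s were 1.67% of SAG replicate 3 and 0.326% to 0.360% of the rest. The Hedgehog target gene Gli1 averaged 36.6 ± 8.46 in SAG and 0.625 ± 0.270 in DMSO, and Ptch1, the Hedgehog receptor and target gene, 39.6 ± 11.6 in SAG and 13.7 ± 2.28 in DMSO (SD, n = 3 each). Tested were 12550 genes whose mean signal reached 1, and limma with Benjamini-Hochberg adjustment called 3709 (29.6%) at an adjusted p under 0.05, 12.9% higher and 16.6% lower in SAG. With the deposited scaling 43.8% of the calls were higher, and with scaling by library total 66.3%, a scaling that kept the direction and call of all 6 members tested. The libraries of the 2 groups did not overlap in 48% of the genes tested. The tissue labelled was testis. All 9 markers of a fixed interstitial progenitor list had a mean signal of at least 1 over all libraries, Gli1 only through SAG. Of these, Pdgfra was at 210 to 227 in SAG and 32.2 to 36.9 in DMSO. The smooth muscle marker Acta2 was at 6219 to 6833 in SAG and 9675 to 9940 in DMSO. Germ cell markers summed to at most 0.220 in SAG and 0.231 in DMSO.

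Of the 8 genes, 6 passed the filter, each with a mean signal of at least 1 in both groups. Ednra, Ednrb, Ace and Edn1 were higher in SAG, and Ece1 and Agtr1a were lower, so 6 of 6 were called, against 29.6% of all genes tested. In each of the 6 the libraries of the 2 groups did not overlap, as in 48% of all genes tested. An exact two-sided permutation test gave p = 0.1 for each, the smallest that 3 against 3 libraries can give. That value follows from the lack of overlap and adds nothing to it. Edn3 and Agtr2 were at or near the detection floor and were not tested. With DMSO reads thinned to the depth of the SAG libraries all 6 calls were kept. The median log2 difference, SAG minus DMSO, of the 6 was 1.05, against -0.03 over all genes tested. Because the members were chosen with earlier results of these data known, these comparisons with all genes are no test of the family.

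**Figure D1:**
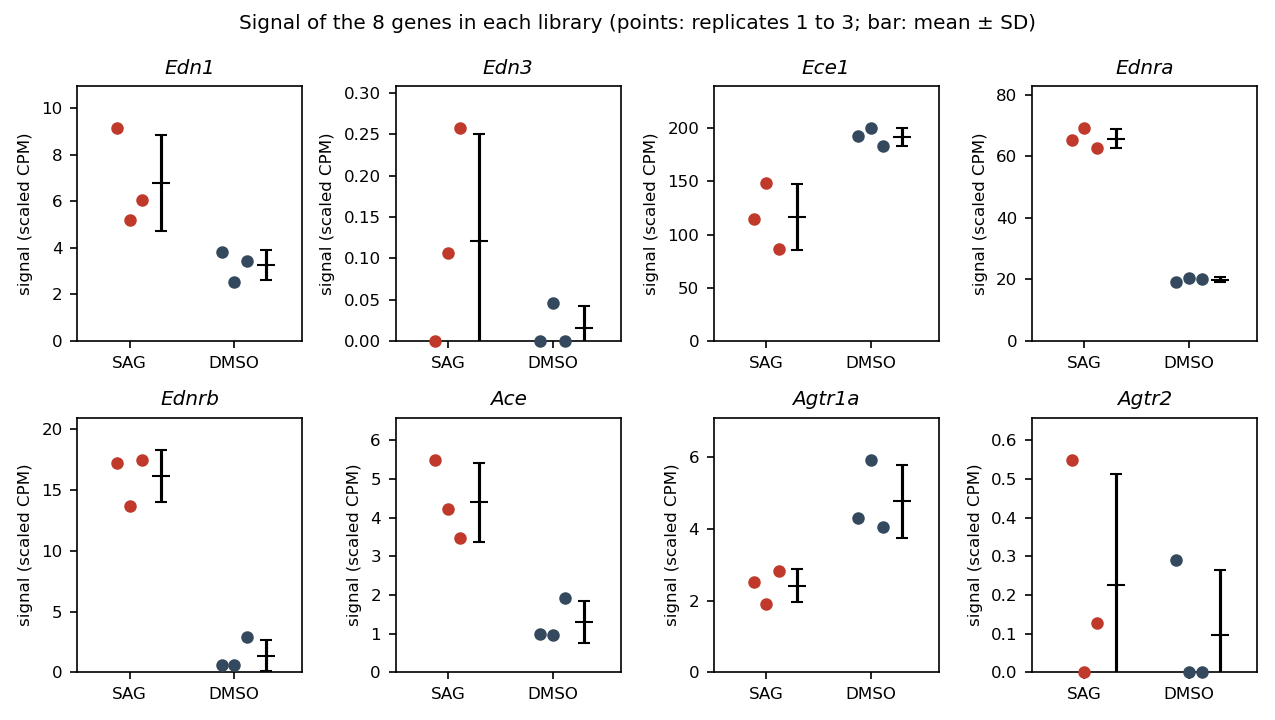
Signal (deposited scaled CPM, y axis, a separate scale for each gene) of the 8 genes in the 3 SAG and 3 DMSO libraries, with SAG on the left; points are libraries and bars are group means with SD. The groups stand apart for 6 genes, with Edn3 and Agtr2 at 0 or near it in most libraries.

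Markers of several cell types, the interstitial cells included, moved between the groups. Markers of the interstitial progenitor list summed to 946 to 1119 in SAG and 351 to 367 in DMSO, 8 of 9 called higher. Among those 8 were Gli1 and Ptch1, which are Hedgehog target genes and so not markers of cell type alone. Lhx9 was not called. The pericyte and smooth muscle list summed to 12967 to 14221 in SAG and 19732 to 20611 in DMSO, with 7 of 9 tested called lower and 1 higher. The endothelial list summed to 71.7 to 106 in SAG and 125 to 130 in DMSO, with Cldn5 at 0 and Pecam1 at most 0.642. Of its 5 markers tested, only Flt1 was called, lower in SAG, at 51.7, 49.9 and 32.8 in SAG and 92.5, 87.2 and 87.8 in DMSO. Cdh5, the next most abundant, was not called, at 43.8, 43.6 and 28.3 in SAG and 25.1, 26.9 and 31.2 in DMSO. Schwann and neural crest markers, the cells best known for Ednrb, summed to at most 3.28 in SAG and 1.58 in DMSO, with Sox10 and Foxd3 at 0. Leydig markers summed to 23.0, 19.0 and 116 in SAG and 32.3 to 33.3 in DMSO, so that SAG replicate 3 was above all DMSO libraries and the other SAG libraries below them. Lhcgr was at 0, while Star was at 12.0, 11.2 and 50.7 in SAG and 23.9 to 25.0 in DMSO, and Cyp11a1 at 7.25, 5.61 and 33.9 in SAG and 6.87 to 8.63 in DMSO. Of the 3 Leydig markers tested, 1 was called, Hsd3b1, higher in SAG at 3.73, 2.01 and 30.8, against at most 0.370 in DMSO. Hsd3b1 passed the filter only through SAG. Sertoli markers summed to 29.9 to 31.2 in SAG and 31.0 to 38.1 in DMSO, macrophage markers to 0.848 to 3.41 in SAG and 2.15 to 3.10 in DMSO, and erythroid markers to at most 0.318 in SAG and 0.508 in DMSO. The part of these markers in the members' differences was not tested. In such bulk samples fewer cells of a type and less RNA per cell cannot be told apart.

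Of the ligands, Edn1 (ENSMUSG00000021367.8, GRCm38 chr13:42301476-42307990, plus strand) codes for the precursor of endothelin 1. Its signal was 9.12, 5.19 and 6.04 in SAG replicates 1 to 3, from 83, 49 and 47 reads, and 3.81, 2.54 and 3.44 in DMSO replicates 1 to 3, from 92, 55 and 61 reads. SAG replicate 1 was the highest library, and the lowest SAG library was above the highest DMSO library. The means were 6.78 ± 2.07 in SAG and 3.26 ± 0.652 in DMSO (SD, n = 3 each), 2.08-fold higher in SAG, with a log2 difference of 0.85 (SE 0.23) and limma adjusted p = 0.0216. The call was lost without SAG replicate 1 (limma adjusted p = 0.0607), DMSO replicate 2 (0.0925) or DMSO replicate 3 (0.0638). An antisense gene, Gm47118, overlaps Edn1 and has no row of its own.

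Edn3, the precursor gene of endothelin 3 (chr2:174760619-174784042, plus strand), had 0, 1 and 2 reads in SAG and 0, 1 and 0 in DMSO. All its values were under the floor of 3 reads, a signal of 0.318 to 0.385 in SAG libraries and 0.124 to 0.169 in DMSO libraries. It was therefore not detectable at this depth, and no fold is given. Floors cover counting error only.

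Ece1 (chr4:137862237-137965229, plus strand) codes for the enzyme that makes the last cut of endothelin precursors. Its signal was 114, 148 and 86.7 in SAG, from 1042, 1401 and 675 reads, and 193, 200 and 183 in DMSO, from 4654, 4323 and 3244 reads. SAG libraries spread more than DMSO libraries, and all 3 were below the lowest DMSO library. The means were 117 ± 30.9 in SAG and 192 ± 8.47 in DMSO (SD, n = 3 each), 1.65-fold lower in SAG, with a log2 difference of -0.75 (SE 0.17) and limma adjusted p = 0.0102. The call was kept whichever library was left out. Ace, angiotensin converting enzyme (chr11:105967945-105989964, plus strand), had a signal of 5.49, 4.24 and 3.47 in SAG, from 50, 40 and 27 reads, and 0.994, 0.971 and 1.92 in DMSO, from 24, 21 and 34 reads. DMSO replicate 3 was the highest DMSO library and still below the lowest SAG library. The means were 4.40 ± 1.02 in SAG and 1.29 ± 0.540 in DMSO (SD, n = 3 each), 3.40-fold higher in SAG, with a log2 difference of 1.24 (SE 0.24) and limma adjusted p = 0.00515. Its fold was 2.98 to 4.48 on leaving out any library, and the call was kept each time. The antisense gene Gm11651, which shares 3.77% of the 50-base stretches of Ace, averaged 0.713 in SAG and 0.142 in DMSO; the strand setting of the counting was not given in the sources used here.

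Ednra, the endothelin receptor that prefers endothelin 1 (chr8:77663031-77724464, minus strand), had a signal of 65.4, 69.1 and 62.8 in SAG, from 595, 652 and 489 reads, against 19.2, 20.6 and 20.1 in DMSO, from 463, 445 and 356 reads. Each group spanned a narrow range, and every SAG library was above every DMSO library. The means were 65.7 ± 3.15 in SAG and 19.9 ± 0.708 in DMSO (SD, n = 3 each), 3.30-fold higher in SAG, with a log2 difference of 1.67 (SE 0.11) and limma adjusted p = 2.25e-05. Leaving out any library kept the fold between 3.21 and 3.37. The antisense gene 4933431K23Rik overlaps Ednra and has no row of its own.

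Ednrb, the receptor that binds all endothelins (chr14:103814625-103844402, minus strand), had a signal of 17.2, 13.7 and 17.5 in SAG, from 157, 129 and 136 reads, and 0.621, 0.647 and 2.88 in DMSO, from 15, 14 and 51 reads. DMSO replicate 3 stood above the other DMSO libraries and below all SAG libraries. The means were 16.1 ± 2.13 in SAG and 1.38 ± 1.29 in DMSO (SD, n = 3 each), 11.7-fold higher in SAG, with a log2 difference of 2.97 (SE 0.32) and limma adjusted p = 2.48e-04. Without DMSO replicate 3 the fold was 25.4, and without any other library it was 9.15 to 12.6.

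Agtr1a, the main receptor of angiotensin II (chr13:30336441-30382867, plus strand), had a signal of 2.53, 1.91 and 2.83 in SAG, from 23, 18 and 22 reads, and 4.31, 5.92 and 4.06 in DMSO, from 104, 128 and 72 reads. The highest SAG library was below the lowest DMSO library. The means were 2.42 ± 0.469 in SAG and 4.76 ± 1.01 in DMSO (SD, n = 3 each), 1.97-fold lower in SAG, with a log2 difference of -0.75 (SE 0.21) and limma adjusted p = 0.0252. The call was lost without SAG replicate 2 (limma adjusted p = 0.0671), DMSO replicate 1 (0.0713), DMSO replicate 2 (0.122) or DMSO replicate 3 (0.0570). Agtr1a shares 1.13% of its 50-base stretches with Agtr1b, which had 1 read in SAG replicate 3 and 0 in every other library. Agtr2, the other angiotensin II receptor gene (chrX:21484544-21489164, plus strand), had 5, 0 and 1 reads in SAG and 7, 0 and 0 in DMSO, a signal of 0.549, 0 and 0.128 in SAG and 0.290, 0 and 0 in DMSO. Only the first replicate of each group was above the floor of 3 reads, so no fold is given.

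The endothelin receptor pair was read per kilobase of exon, so that genes of unlike length could be compared. Lengths were those of merged GENCODE M21 exons, and whether the counting used that annotation is not stated. Ednrb made up 25.3%, 20.3% and 26.3% of both receptors in SAG replicates 1 to 3, against 3.99%, 3.88% and 15.5% in DMSO replicates 1 to 3. The means were 24.0% ± 3.24 in SAG and 7.80% ± 6.70 in DMSO (SD, n = 3 each). The groups did not overlap, with DMSO replicate 3 nearest to SAG. The summed level of both receptors was 16.0, 15.8 and 15.6 per kilobase in SAG and 3.65, 3.91 and 4.34 in DMSO. Ednra over Ednrb was 2.95, 3.94 and 2.80 in SAG and 24.0, 24.8 and 5.44 in DMSO. The DMSO ratios rest on 15, 14 and 51 Ednrb reads. A ratio of 2 members carries no test.

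**Figure D2:**
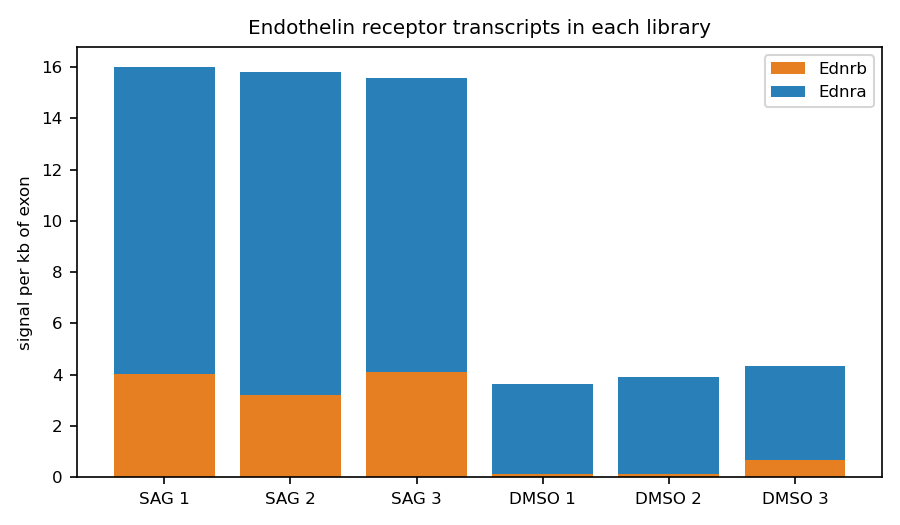
Stacked signal per kilobase of exon (y axis) of Ednrb (orange) and Ednra (blue) in each of the 3 SAG and 3 DMSO libraries. The SAG bars reach 15.6 to 16.0 and the DMSO bars 3.65 to 4.34, and the orange part is 20.3% to 26.3% of the SAG bars and 3.88% to 15.5% of the DMSO bars.

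Within SAG cells the level per kilobase ran from Ece1 at 22.0 ± 5.83 and Ednra at 12.0 ± 0.575 through Ednrb at 3.78 ± 0.500 and Edn1 at 3.17 ± 0.966 to Agtr1a at 0.869 ± 0.168 and Ace at 0.832 ± 0.193 (SD, n = 3). Ednrb and Edn1 overlapped between libraries, as did Agtr1a and Ace. Within DMSO cells the order was Ece1 at 36.2 ± 1.60, Ednra at 3.64 ± 0.129, Agtr1a at 1.71 ± 0.362, Edn1 at 1.53 ± 0.305, Ednrb at 0.324 ± 0.303 and Ace at 0.245 ± 0.102 (SD, n = 3). Agtr1a and Edn1 overlapped, as did Ednrb and Ace. Agtr2 and Edn3 came last in both groups. Among genes above 0, Ednra stood at percentile 76.6 in SAG and 52.9 in DMSO, Ednrb at 51.7 in SAG and 24.3 in DMSO, Edn1 at 48.4 in SAG and 38.9 in DMSO, and Ece1 at 86.6 in SAG and 91.7 in DMSO.

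**Figure D3:**
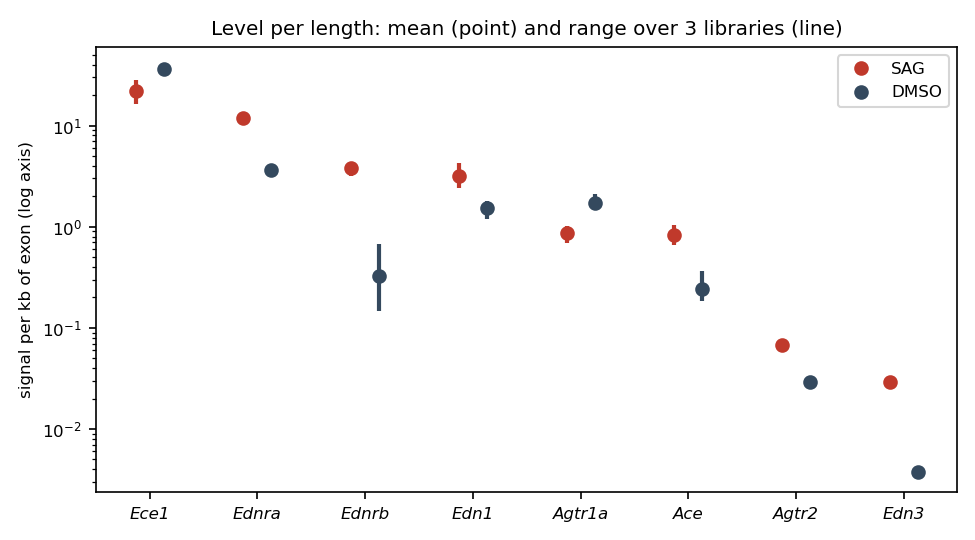
Signal per kilobase of exon (y axis, log scale) of the 8 genes in SAG (red) and DMSO (dark blue); points are means and lines the range over 3 libraries, with no line for Agtr2 and Edn3, whose lowest library is at 0. Ece1 leads in both groups, and Ednrb is at 3.78 in SAG and 0.324 in DMSO.

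Of 21 other genes of the endothelin and renin-angiotensin systems, 13 passed the filter and 8 did not. In SAG, 3 of the 13 were higher, 3 lower and 7 not called, against 12.9% higher and 16.6% lower over all genes tested, with a median log2 difference of -0.12. The higher ones were Mme, neprilysin, which degrades endothelins (26.1 ± 3.35 in SAG and 8.59 ± 0.131 in DMSO, 3.04-fold, limma adjusted p = 1.19e-04), Enpep, which trims angiotensin II (16.5 ± 1.97 in SAG and 6.83 ± 0.805 in DMSO, 2.41-fold, 8.58e-04), and Agt, angiotensinogen. Agt had a signal of 2.86, 2.44 and 7.45 in SAG and 0.331, 0.0924 and 0.620 in DMSO (12.2-fold, limma adjusted p = 0.00435). Its fold was 7.60 without SAG replicate 3 and 20.0 without DMSO replicate 3, and it passed the filter only through SAG. Adrenal cortex markers summed to 7.80, 4.56 and 74.6 in SAG and to 1.86 to 2.43 in DMSO. Of the 3 tested, 2 were called higher, Cyp21a1 and Akr1b7, and both passed the filter only through SAG. Cyp21a1 was at 2.64, 1.80 and 35.3 in SAG and at 0 in each DMSO library. The part of these markers in the result was not tested.

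Lower in SAG were the aminopeptidase Lnpep (34.0 ± 4.64 in SAG and 58.0 ± 7.91 in DMSO, 1.71-fold, limma adjusted p = 0.00439), Prep, prolyl endopeptidase (94.5 ± 17.3 in SAG and 131 ± 8.25 in DMSO, 1.39-fold, 0.0295), and Nln, neurolysin (32.5 ± 4.45 in SAG and 42.6 ± 1.90 in DMSO, 1.31-fold, 0.0451). The Prep call was lost without DMSO replicate 1, 2 or 3, with scaling by library total and without the trend. The Nln call was lost without each library but SAG replicate 3 and in edgeR and DESeq2 on the recovered reads. It was also lost with scaling by library total, without the trend, with no filter, with a replicate block and with DMSO reads thinned to SAG depth. By count, 1 gene of the list was called lower without any single DMSO library, with scaling by library total, or without the trend. The most abundant genes of the list not called were Ctsa, Atp6ap2, Thop1 and Prcp. Ctsa, cathepsin A, had a signal of 182 to 260 in SAG and 235 to 256 in DMSO, and Atp6ap2, the prorenin receptor, 57.8 to 98.6 in SAG and 77.8 to 88.4 in DMSO. Ren1, the renin gene, had 5 reads in DMSO replicate 2 and 0 elsewhere, and Edn2, Kel and Cma1 had 0 reads in every library (named after their values were seen).

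Of 30 signalling genes of these receptors, 26 were tested: 4 were higher in SAG, 4 lower and 18 not called, near the 12.9% higher and 16.6% lower over all genes tested, with a median log2 difference of -0.13. Higher were Rgs3, a brake on G-protein signalling (50.1 ± 12.6 in SAG and 20.0 ± 0.700 in DMSO, 2.51-fold, limma adjusted p = 0.00116), Arrb1, a beta-arrestin (31.3 ± 0.426 in SAG and 18.1 ± 2.03 in DMSO, 1.72-fold), Rgs2 (2.31 ± 0.573 in SAG and 0.725 ± 0.164 in DMSO, 3.19-fold) and Gnai1 (31.2 ± 5.88 in SAG and 20.5 ± 1.42 in DMSO, 1.52-fold). Rgs2 passed the filter only through SAG. Lower were the calcium channels Itpr2 (16.7 ± 2.59 in SAG and 28.3 ± 1.66 in DMSO, 1.70-fold) and Itpr3 (25.0 ± 5.09 in SAG and 41.0 ± 2.59 in DMSO, 1.64-fold), the phospholipase gene Plcb4 (38.6 ± 9.20 in SAG and 63.7 ± 3.80 in DMSO, 1.65-fold) and Rgs4 (25.2 ± 4.09 in SAG and 38.2 ± 5.18 in DMSO, 1.52-fold). The limma adjusted p of these 7 after Rgs3 ran from 0.00238 to 0.0197. Without DMSO replicate 1 or 2 the higher count was 2, with the Rgs2 and Gnai1 calls lost; the Gnai1 call was also lost without DMSO replicate 3. The lower count was 7 without SAG replicate 2 or 3 and 2 without DMSO replicate 2. The Plcb4 call was lost without DMSO replicate 2, and the Rgs4 call without SAG replicate 1, DMSO replicate 1 or DMSO replicate 2.

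**Figure D4:**
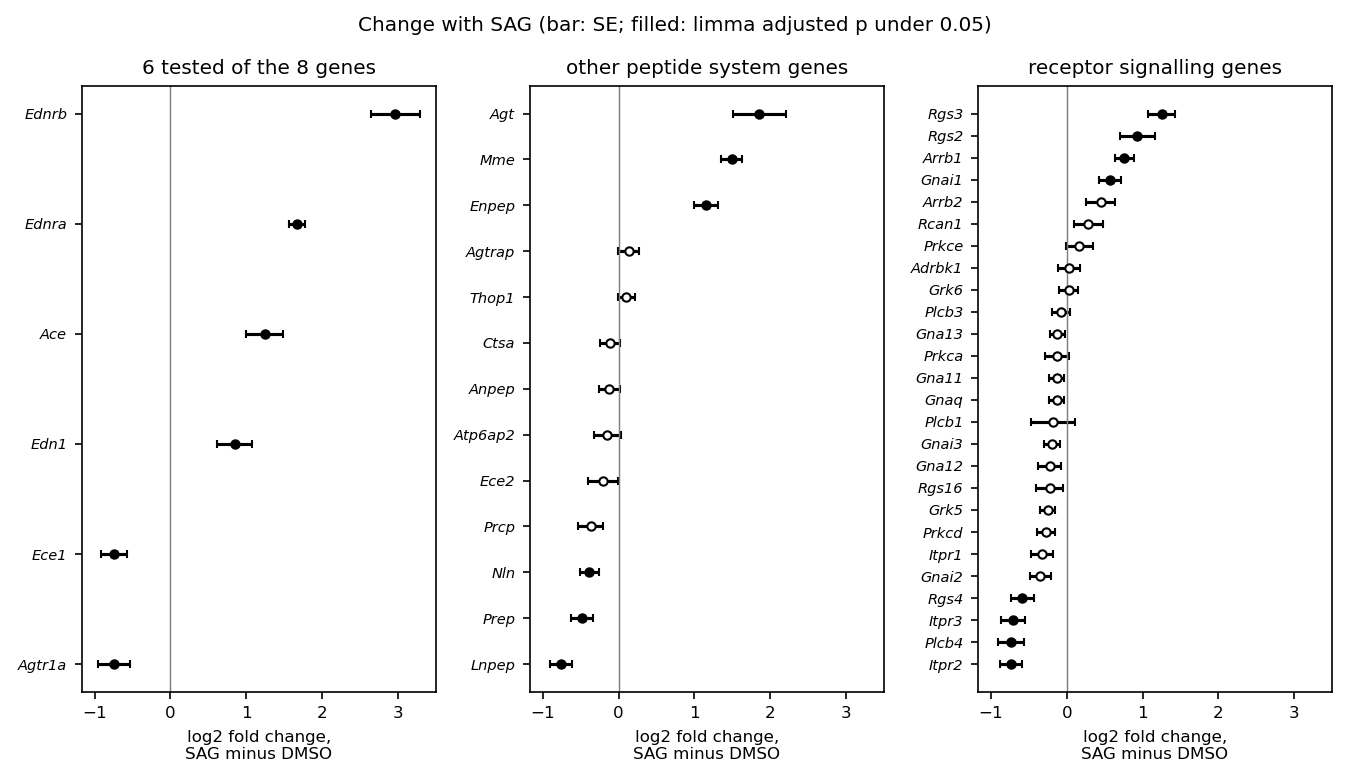
Log2 difference SAG minus DMSO (x axis, with SE bars) of the 6 tested genes, the 13 other endothelin and renin-angiotensin genes and the 26 signalling genes; filled points have a limma adjusted p under 0.05. The 6 are all filled and run from -0.75 to 2.97.

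For each called gene the 3 genes with the most alike pattern were taken by Pearson's r of log2(signal + 1) over the 6 libraries; these 6 values share their libraries and the 2 groups stand apart in each member. For Ednra they were Sema6c, Pdgfra and Acaa2 (r = 0.999 each), and for Ednrb Hps4, Amz2 (0.994 each) and Serpina3g (0.993). For Ece1 they included Gtse1 (0.998) and Atp11a (0.997), for Edn1 Lipg (0.984), Pik3r1 (0.974) and Ntpcr (0.973), for Agtr1a Ube2e2 (0.998), Arhgap11a (0.993) and SlcUbl4a, as the table spells it (0.988), and for Ace Slc43a1 (0.995), Robo2 (0.989) and Rsbn1 (0.988). Lipg, Pik3r1, Ntpcr, SlcUbl4a and Rsbn1 were not themselves called between the groups (limma adjusted p = 0.0620 to 0.288). The correlations are descriptions with no test.

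**Figure D5:**
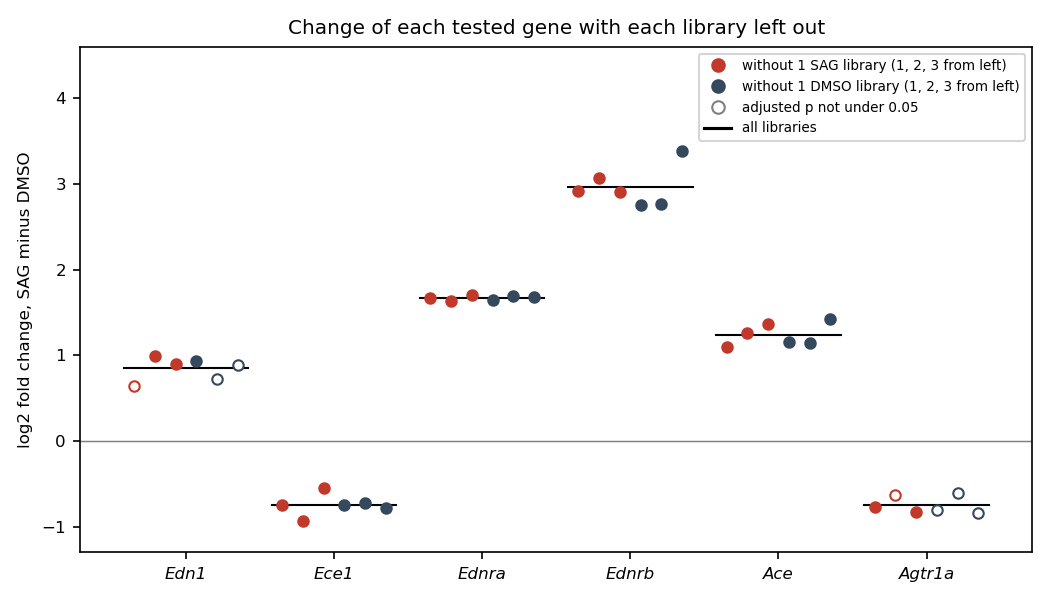
Log2 difference SAG minus DMSO (y axis) of the 6 tested genes with all libraries (line) and with each SAG (red) or DMSO (dark blue) library left out in turn; open points have an adjusted p of 0.05 or more. No gene changes direction, and Ednrb without DMSO replicate 3 moves the most.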

How the data were processed

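RNA-seq was made from W-EGFP cells in 6 libraries, 3 SAG and 3 DMSO. Reads were handled with Trim Galore (0.6.4), STAR and featureCounts (2.0.0), then edgeR (given as 2.2.1), on mouse build GRCm38, according to the submitters' processing notes. The sources used here name no annotation, strand setting or filter. Per the labels' protocols, RNA came from an RNeasy Micro kit and libraries from a strand-preserving NEBNext kit. The table the authors deposited is named CPM, but its columns sum to unequal totals, so its values are treated as a signal: CPM with the authors' scaling factors inside. Of the values, 100% were whole multiples of 1 read (tolerance 0.01), which gave back reads. The 92 spike-in rows were left out.

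Values were tested as log2(signal + 1), a scale that understates the change of low genes, with limma 3.58.1 (eBayes with trend, group as the only term) in R 4.3.3. Genes entered at a mean signal of 1 or more, with Benjamini-Hochberg adjustment over all of them. Folds without a log scale divide 1 group mean by the other. The results were recomputed with other pseudocounts, filters and scalings, with limma made robust or run without trend, with the replicate number as a block, with edgeR 4.0.16 and DESeq2 1.42.0 on recovered reads, with DMSO reads thinned to SAG depth, and without each library. The limma step was tested on simulated data, with 12522 genes entering the fit. Of these, 99 were changed 1.5-fold and 99 were changed 2-fold. It recovered 26.3% of the 1.5-fold and 74.7% of the 2-fold changes. Of its 108 calls there, 7.41% were false. In the measured libraries 29.6% of genes were called, and whether these rates hold at that share was not tested. Gene models came from GENCODE M21. The members and lists were chosen with earlier results of these data known. Named genes were the 8 members, every called gene and up to 4 most abundant uncalled genes of the related list, up to 8 called signalling genes, the 3 genes most alike to each called member (mean signal of at least 10, predicted genes aside), and Gli1 and Ptch1. A gene that this rule selects is not reported here.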

Additional observations from a re-analysis of the deposited data

Results flagged for a closer look

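Synthetic spike-in RNAs, which the comparisons leave out, had 111, 54 and 1205 reads in SAG replicates 1 to 3 and 0 reads in each DMSO library. They were flagged because they appear above the level of the DMSO libraries. Spike-in reads thus went with the groups, and a difference in library handling cannot be told apart from the treatment in these data.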

How the results depend on the processing

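With scaling by library total, 2477 genes were higher and 1259 lower in SAG, against 1625 and 2084; the median over all genes was 0.10 with that scaling and -0.03 with the deposited one, and the higher share of calls was 66.3% against 43.8%. Leaving out 1 library gave 901 to 2463 higher and 1086 to 3373 lower genes. Both highest counts came without SAG replicate 3, and both lowest without DMSO replicate 3. The log2 difference of Edn1 was 0.64 to 1.00 and that of Agtr1a -0.83 to -0.61 over the left-out libraries, with the calls lost as given. edgeR on the recovered reads called 1913 genes higher and 1820 lower, and DESeq2 2138 and 1965. The 6 calls held under every other alternative that tested them; Agtr1a and Ace were not tested with the filter at a mean of 5. No tested member changed direction. Same-numbered libraries did not deviate together (r = -0.0231, 0.0332 and -1.73e-04), so the numbers were not used as pairs; with a replicate block, 1549 genes were higher and 1976 lower, and all 6 calls were kept, while the Nln call was lost. The cause of these changes was not tested. With at most 7 reads in a library, depth limits Edn3 and Agtr2.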
